A study of Mus musculus with 32 samples.

Results

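Small RNA was compared between extracellular vesicles (EVs) that cellulose nanofiber sheets had taken up from the liver surface and from the pelvic peritoneum of mice at day 0. The 10 libraries were the 5 liver surface sheets and the 5 pelvic sheets of that day, out of 32 libraries in the series, and the miRNAs described are the 385 of 1216 detected in these libraries that reached 10 RPM (reads per 1000000 mapped reads) on at least 5 of the 10 sheets. The sample labels call the upper site diaphragm, and the study's text calls it liver surface. The animals were female BALB/cSlc-nu/nu nude mice, given as 8 weeks old in the labels and as 8 to 10 weeks old at injection in the methods, of an athymic strain that lacks T cells. In the model from which both groups came, mice received ID8-T6 cells, a subclone of the mouse ovarian carcinoma line ID8 with a high capacity for peritoneal metastasis, placed orthotopically in the left ovarian bursa. Whether a day 0 sheet was applied before or after that injection was not stated, so these mice may not yet have carried tumor cells. The 2 groups shared strain, model and day, and differed by the site of the sheet. Sheets were numbered 1 to 5 at each site. By a tag in the library names, numbers 1, 3 and 4 of both sites formed a first library series and numbers 2 and 5 a second. What that tag stands for was not given. The question put by the design was whether EVs of one body cavity differ by location.

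EVs are membrane-bound particles that cells release with part of their RNA, and the fluid film of the peritoneum holds EVs from the organs that it bathes. A miRNA directs the silencing complex to mRNAs mainly through its seed, the bases just after its 5′ end, so that miRNAs with one seed are counted as a family. Several miRNAs mark where a cell comes from: the miR-196, miR-10 and miR-615 genes lie within the Hox clusters, whose genes are switched on in order along the head-to-tail axis, miR-122 is the dominant miRNA of hepatocytes, miR-451a and miR-144 are made in red blood cell precursors, and miR-126 belongs to endothelium.

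The mature sequences of the miRNAs on which the comparison turned are given from RefSeq (GRCm38.p6), in which 333 of the 385 miRNAs tested had an entry, with the seed, bases 2 to 8, in capitals. Those from the Hox clusters were the following, and they are shown first because the miRNAs called on the pelvic side were among them.
miR-196a-5p: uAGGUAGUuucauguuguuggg
miR-196b-5p: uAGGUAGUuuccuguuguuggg
miR-615-3p: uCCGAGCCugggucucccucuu
miR-10b-5p: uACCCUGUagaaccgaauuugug
miR-10a-5p: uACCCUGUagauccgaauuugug
miR-10b-3p: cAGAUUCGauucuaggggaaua
The miR-196 pair share a seed and differ at 1 base of 22, and the miR-10 pair share another and differ at 1 base of 23, while miR-615-3p and miR-10b-3p have seeds of their own among the miRNAs tested. Next are those of the liver surface side, from hepatocyte, red blood cell, endothelial, mesenchymal and Mcm7 groups.
miR-802-5p: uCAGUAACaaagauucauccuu
miR-451a: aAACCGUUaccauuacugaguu
miR-144-3p: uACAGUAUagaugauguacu
miR-126a-3p: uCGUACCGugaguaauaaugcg
miR-199a-5p: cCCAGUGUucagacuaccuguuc
miR-93-5p: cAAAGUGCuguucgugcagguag
miR-106b-5p: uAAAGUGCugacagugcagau
miR-17-5p: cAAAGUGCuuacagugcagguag
miR-20a-5p: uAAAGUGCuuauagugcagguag
miR-31-5p: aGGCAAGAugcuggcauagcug
Among these miR-93-5p, miR-106b-5p, miR-17-5p and miR-20a-5p have the seed AAAGUGC in common, the first 2 from chromosome 5 and the others from chromosome 14.

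The liver surface libraries held 1053028 to 2540577 miRNA reads and the pelvic libraries 1022869 to 1682346, and the 385 miRNAs took 99.86% to 99.91% of them. Values are in RPM, and fold changes are log2 differences of log2(RPM + 10), liver surface over pelvic peritoneum, from a limma fit of the 10 libraries. A miRNA was called at a Benjamini-Hochberg adjusted p under 0.05 with a log2 fold change over 1 in size. Sheets of one number (OT1 to OT5) deviated together at the 2 sites, so a second fit, in which that number was a block, is given wherever it changed a call. Nothing in the labels says that the sheets came from separate animals, so the p-values measure the spread between these sheets. In such bulk samples, fewer EVs of a cell type and less miRNA per EV cannot be told apart. Liver surface sheet 3 stood apart from the others: its miRNAs lay a median of 0.70 log2 units from their site's median, against 0.14 to 0.25 for the other liver surface sheets and 0.15 to 0.26 for the pelvic sheets. Over all 385 miRNAs the median log2 fold change was -0.15, with 139 above 0 and 245 below, and it was -0.01 after rescaling by the median of ratios, so that list medians below are to be read against the first of these values. Without pair 3, 189 of the 385 were above 0.

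By limma 3 miRNAs were higher on the liver surface (0.779% of those tested) and 3 were lower (0.779%). With the block these numbers were 16 (4.16%) and 5 (1.3%). The 6 calls without the block were all kept with it. The larger count depended on which sheets entered, since leaving out pairs 1 to 5 in turn gave 7, 11, 17, 3 and 2 higher miRNAs with the block, and 5, 5, 5, 4 and 4 lower ones. Without the block the lower calls were 3, 2, 4, 1 and 2 and the higher ones 2 each time. Without regard to any model, 4 miRNAs had all liver surface sheets above all pelvic sheets (1.04%) and 8 had all of them below (2.08%), and within the numbered pairs 40 were higher on the liver surface 5 times of 5 (10.4%) and 61 were lower (15.8%).

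**Figure D1:**
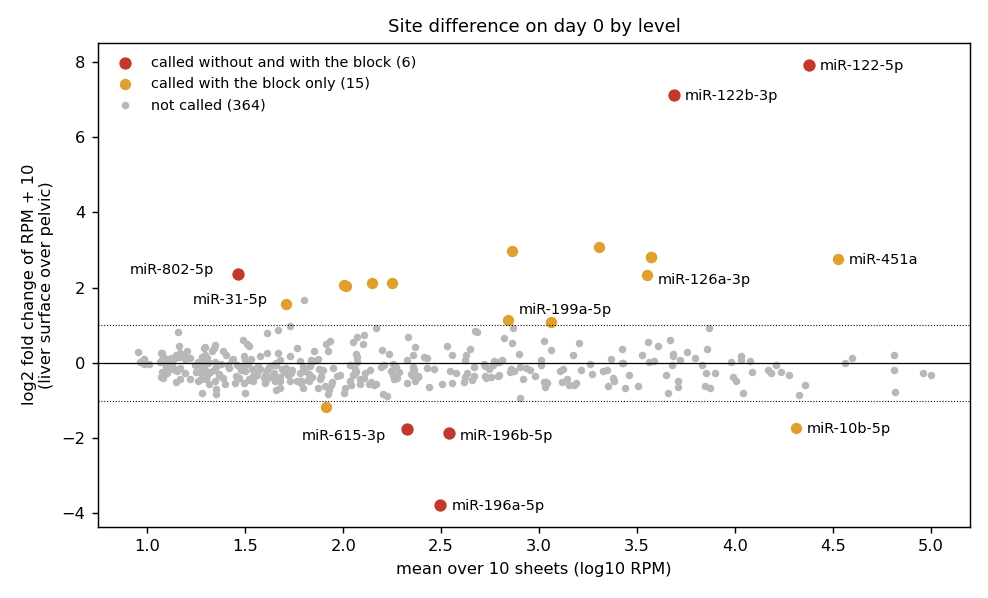
Log2 fold change (liver surface over pelvic peritoneum, y axis) against the mean level (log10 of the mean RPM over the 10 sheets, x axis) of the 385 miRNAs tested. Colors separate the 6 miRNAs called by limma with and without the replicate block, the 15 called only with it and the 364 called by neither. miR-122-5p lies far above the rest at 7.92 and miR-196a-5p lowest at -3.77.

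All miRNAs called lower on the liver surface by limma, without or with the block, were from the Hox clusters. Of the 61 miRNAs lower on the liver surface in all 5 pairs, 6 were on the Hox list. Of the 7 Hox cluster miRNAs tested, 3 fell by limma and 5 with the block, and all 7 had a log2 fold change below 0, with a median of -1.73. The list as a whole took 3.78%, 2.83%, 1.16%, 2.06% and 3.07% of the reads of liver surface sheets 1 to 5, and 8.88%, 5.69%, 3.92%, 4.7% and 6.68% of those of pelvic sheets 1 to 5.

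miR-196a-5p, which represses Hoxb8 in the mouse and has 2 gene copies, Mir196a-1 at chr11:96265187-96265208 (plus strand, 6249 bases from Hoxb9) and Mir196a-2 at chr15:102973365-102973386 (plus strand, in an intron of Hoxc5), showed the greatest fold change below 0. Its levels were 113, 20.1, 12.6, 23.8 and 32.6 RPM on liver surface sheets 1 to 5, and 739, 602, 271, 752 and 568 RPM on pelvic sheets 1 to 5. The highest liver surface sheet, sheet 1, was below the lowest pelvic sheet. The means were 40.4 ± 41.2 RPM on liver surface sheets and 586.3 ± 194.3 RPM on pelvic sheets (± SD, n = 5 sheets each), and the log2 fold change was -3.77 ± 0.45 (SE, adjusted p = 0.00108 by limma).

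miR-196b-5p, from Mir196b at chr6:52230129-52230150 (minus strand, in an annotated exon of Hoxa9), had 267, 114, 76.4, 162 and 139 RPM on liver surface sheets 1 to 5, against 634, 595, 339, 583 and 566 RPM on pelvic sheets 1 to 5. The groups again did not overlap, and the log2 fold change was -1.85 ± 0.32 (SE, adjusted p = 0.00767 by limma). The pair thus differed in balance between sites, with miR-196b-5p at 2.36 to 6.78 times the level of miR-196a-5p on the liver surface sheets and 0.775 to 1.25 times on the pelvic sheets. Reads were matched with up to 2 mismatches, and the pair differ at 1 base. The sharing of reads between them was not tested.

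miR-615-3p, from Mir615 at chr15:103014969-103014990 (plus strand, in an intron of Hoxc5), had 84.5, 112, 53.5, 98.6 and 104 RPM on liver surface sheets 1 to 5 and 465.6, 312.8, 207.9, 338.3 and 327.5 RPM on pelvic sheets 1 to 5. It was the tightest of the 3 on the liver surface, with a mean of 90.4 ± 22.9 RPM against 330 ± 91.7 RPM on pelvic sheets (± SD, n = 5 sheets each), and its log2 fold change was -1.75 ± 0.27 (SE, adjusted p = 0.00362 by limma). Leaving out a pair of sheets raised the adjusted p of miR-615-3p to 0.05 without pair 4, and that of miR-196b-5p to 0.0903, 0.0751 and 0.0953 without pairs 2, 4 and 5, whereas miR-196a-5p was called in every setting tried, with 0.0272 as its highest adjusted p.

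The miR-10 genes lie beside or within the Hox genes of paralog group 4, and their miRNAs were more abundant. miR-10b-5p, from Mir10b at chr2:74726074-74726096 (plus strand, in an intron of Hoxd3 and Hoxd4), had 17876, 10952, 3289, 8348 and 10094 RPM on liver surface sheets 1 to 5, against 43640, 27614, 17386, 26727 and 38679 RPM on pelvic sheets 1 to 5. Only liver surface sheet 1 exceeded the lowest pelvic sheet, and the log2 fold change of -1.73 (SE 0.41) had a limma adjusted p of 0.0688, which was 0.0046 with the block. miR-10b-3p, the other arm of the same hairpin, had means of 48.5 ± 26.1 RPM on liver surface sheets and 114 ± 33.6 RPM on pelvic sheets (± SD, n = 5 sheets each), and the difference was -1.17 ± 0.36 on the log2 scale (SE, adjusted p = 0.286 by limma, and 0.0219 with the block). miR-10a-5p, from Mir10a at chr11:96317186-96317208 (plus strand, 1059 bases from Hoxb4), averaged 15261 ± 5150 RPM on liver surface sheets and 27197 ± 9617 RPM on pelvic sheets, and its log2 fold change of -0.85 was below the size required in either fit. The level of miR-10a-5p over that of miR-10b-5p was 1.07 to 2.47 on the liver surface and 0.684 to 1.2 on the pelvic peritoneum. As these miRNAs differ at 1 base and up to 2 mismatches were allowed, they may share reads, which was not tested.

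**Figure D2:**
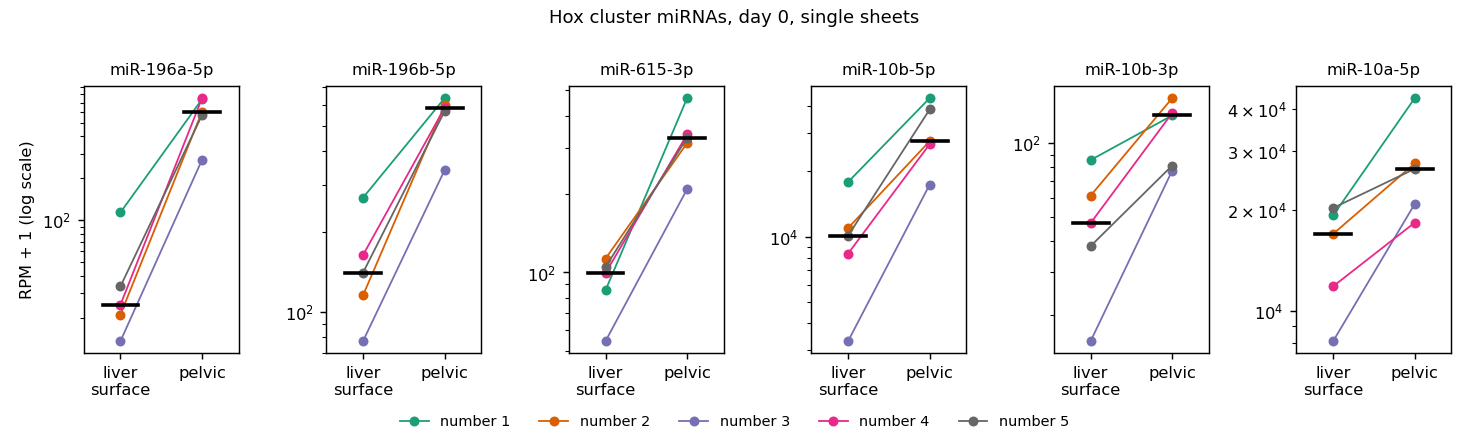
Levels of 6 Hox cluster miRNAs on each sheet (RPM + 1, log axis), liver surface left and pelvic peritoneum right in each panel, with a colored line joining the sheets of each number and black bars at the medians. In the miR-196a-5p, miR-196b-5p and miR-615-3p panels the 5 liver surface points lie below all 5 pelvic points, and in the miR-10b-5p panel only liver surface sheet 1 (17876 RPM) reaches past the lowest pelvic sheet (17386 RPM).

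On the liver surface side the 3 miRNAs called by limma were all on the list of hepatocyte miRNAs: miR-122-5p, miR-122b-3p and miR-802-5p. miR-122-5p, which supports cholesterol and lipid metabolism in hepatocytes, had 1266, 26477, 174591, 13347 and 22755 RPM on liver surface sheets 1 to 5, against 27.9, 9.78, 38.9, 131 and 401 RPM on pelvic sheets 1 to 5. The lowest liver surface sheet was above the highest pelvic sheet, although the liver surface values ranged widely among themselves. The log2 fold change was 7.92 ± 1.15 (SE, adjusted p = 0.00286 by limma), and 7.10 without liver surface sheet 3. The list took 21.1% of the reads of liver surface sheet 3, 0.156% to 3.2% of those of the other liver surface sheets and 0.00117% to 0.0474% of those of the pelvic sheets.

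miR-122b-3p had 248, 5312, 35874, 2750 and 4304 RPM on liver surface sheets 1 to 5 and 5.27, 1.96, 10.2, 27.1 and 73.1 RPM on pelvic sheets 1 to 5, and the difference was 7.12 ± 1.05 on the log2 scale (SE, adjusted p = 0.00286 by limma). It followed miR-122-5p closely, at 0.189 to 0.206 of its level on the liver surface and 0.182 to 0.263 on the pelvic peritoneum. How a read that matched both was counted was not given, so the 2 miRNAs are not independent evidence of each other.

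miR-802-5p comes from Mir802 at chr16:93369737-93369758 (plus strand). It had 31.3, 46.1, 174, 23.8 and 14.3 RPM on liver surface sheets 1 to 5 and no read on any of the 5 pelvic sheets. The 612 reads against 0 made it at least 128-fold higher on the liver surface, and at least 63.6-fold without the highest sheet, taking 3 reads over the pelvic group as the limit that a count of 0 allows. It was the 1 miRNA of the 385 that passed the filter on the liver surface sheets alone, so it had to differ (limma adjusted p = 0.0104). 3 further miRNAs of the hepatocyte list fell short of the filter with reads on all 5 liver surface sheets and no read on a pelvic sheet. They were miR-122-3p (0.95, 102, 551, 43.7 and 59.4 RPM on liver surface sheets 1 to 5, at least 333-fold higher, or 114-fold without the highest sheet), miR-122b-5p (at least 47.2-fold higher, or 16.6-fold) and miR-802-3p (at least 20.9-fold higher, or 11.6-fold). No miRNA showed the reverse pattern. Liver surface sheet 1, the lowest of its site for miR-122-5p (1266 RPM), was above sheets 4 and 5 for miR-802-5p. For miR-802-3p it had 14.2 RPM, above sheets 2, 4 and 5 (4.01, 1.99 and 0.894 RPM). On that sheet miR-802 thus did not follow miR-122.

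miR-192-5p and miR-194-5p, made in liver as well as in gut and kidney, did not differ in the same way. miR-192-5p had 4177, 5631, 35069, 3583 and 5884 RPM on liver surface sheets 1 to 5, against 4390, 2896, 3797, 3120 and 4774 RPM on pelvic sheets 1 to 5. Liver surface sheets 2, 3 and 5 were above every pelvic sheet, sheet 3 by far the most, and sheets 1 and 4 lay within the pelvic range. The log2 fold change was 0.92 ± 0.53 (SE, adjusted p = 0.452 by limma). miR-194-5p, which is clustered with miR-192, had a log2 fold change of 0.56, with 11317 RPM on liver surface sheet 3 and 1778 to 3963 RPM on the other liver surface sheets, against 1575 to 3151 RPM on the pelvic sheets.

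The 7 red blood cell miRNAs were called with the block and not without it. All 7 had a log2 fold change above 0, from 2.11 to 3.07, with a median of 2.81. The median difference was 2.14, 5.66, 1.73, 2.38 and 2.13 in pairs 1 to 5, so pair 2 stood above the others, and without it the log2 fold change of miR-451a was 1.97 and that of miR-144-3p 2.33. No adjusted p by limma without the block was under 0.05 in this list (6 of 7 had an unadjusted p under 0.05), and DESeq2 called none of the 7. miR-451a, from chr11:78073186-78073207 (plus strand), is known to be cut by Ago2 in place of Dicer. It had 2565, 66455, 102989, 77163 and 18783 RPM on liver surface sheets 1 to 5, against 562, 1045, 45679, 15952 and 3881 RPM on pelvic sheets 1 to 5. It was higher on the liver surface in 5 of 5 pairs, while the groups overlapped widely. The log2 fold change was 2.77 ± 1.28 (SE, adjusted p = 0.412 by limma, and 0.0397 with the block). The log2 fold change was 1.87 over the 3 pairs of the first library series and 4.12 over the 2 pairs of the second. miR-144-3p, encoded beside it at chr11:78073047-78073066, differed by 3.07 ± 1.29 on the log2 scale (SE, adjusted p = 0.38 by limma, and 0.0245 with the block). miR-486a-5p and miR-486b-5p (log2 fold changes of 2.82 and 2.81) had nearly equal values on every sheet, so how their reads were divided affects them.

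Of the 4 endothelial miRNAs tested, all from miR-126 genes, 0 were called by limma (4 had an unadjusted p under 0.05), 3 with the block and 4 by DESeq2. The miR-126a and miR-126b genes lie on opposite strands at one place on chromosome 2. The level of miR-126b-3p over that of miR-126a-5p was 0.914 to 1.18 on the liver surface and 0.842 to 1.2 on the pelvic peritoneum. How reads were divided between them was not given, so the 4 miRNAs are not independent evidence of each other. miR-126a-3p, which lies within Egfl7 at chr2:26591402-26591423 (plus strand) and supports VEGF signaling, had 2124, 14429, 13169, 843 and 1180 RPM on liver surface sheets 1 to 5 and 953.8, 1637.6, 450.6, 367.3 and 441.1 RPM on pelvic sheets 1 to 5. Sheets 2 and 3 of the liver surface were far above the rest, and the groups overlapped. The log2 fold change was 2.34 ± 0.81 (SE, adjusted p = 0.358 by limma, and 0.0466 with the block), and miR-126a-5p (2.07) and miR-126b-3p (2.04) were called with the block as well, while miR-126b-5p (1.68) had a limma adjusted p of 0.0754 with it. With the block and median-of-ratios scaling together no endothelial miRNA was called, with a limma adjusted p of 0.0637 for miR-126a-3p and 0.0577 for miR-126a-5p and miR-126b-3p. The 4 miRNAs had a median of 2.05, or 1.56 without pair 3, where miR-126a-3p stood at 1.71. Among 5 leave-outs of a pair in the fit with the block, miR-126a-3p was called in 1, the one without pair 3, miR-451a in 2 and miR-10b-5p in 5.

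**Figure D3:**
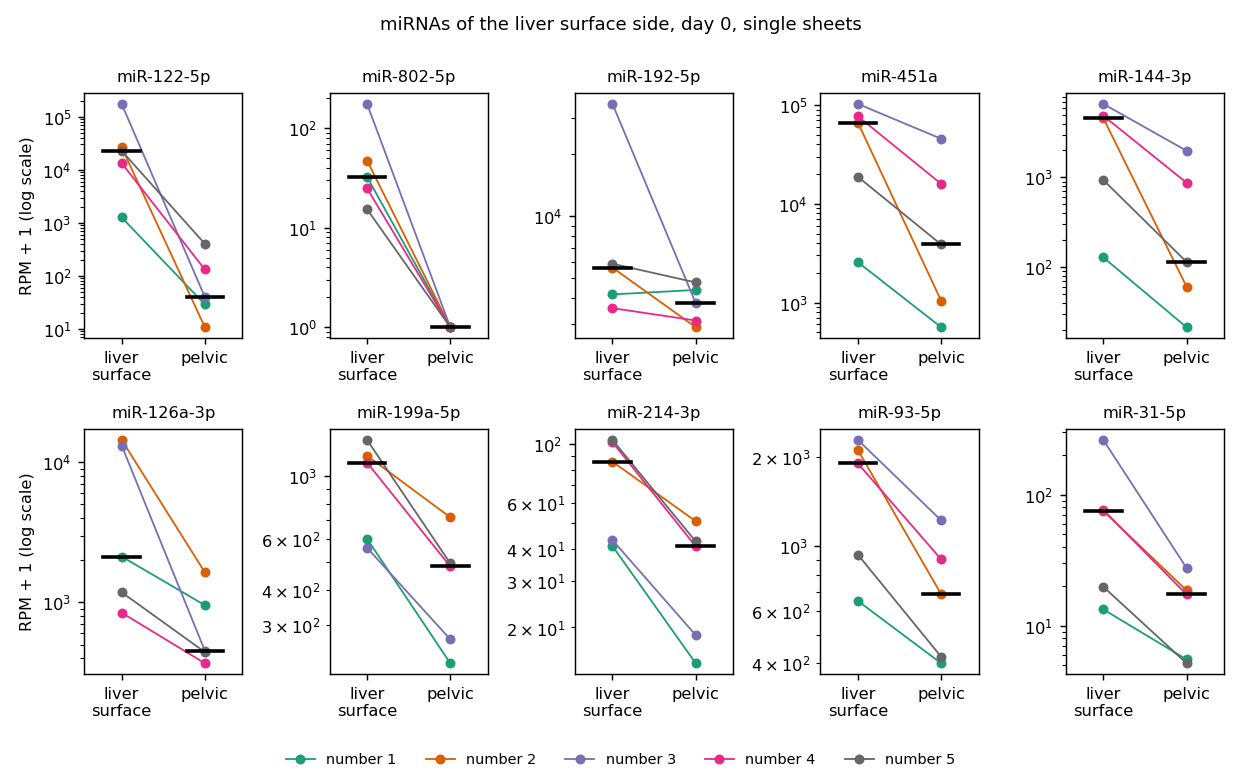
Levels of 10 miRNAs with higher medians on the liver surface, per sheet (RPM + 1, log axis), liver surface left and pelvic peritoneum right, with a colored line joining the sheets of each number and black bars at the medians. miR-122-5p and miR-802-5p do not overlap between sites, whereas miR-451a, miR-126a-3p and the others overlap although every joining line but that of number 1 for miR-192-5p runs downward to the pelvic side.

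The other 3 miRNAs called higher with the block were miR-31-5p, miR-93-5p and miR-199a-5p. The last of these, a miRNA of fibroblasts and other mesenchymal cells encoded with miR-214 on the strand opposite to Dnm3, had 601, 1175, 559, 1111 and 1334 RPM on liver surface sheets 1 to 5, against 220, 715, 267, 481 and 493 RPM on pelvic sheets 1 to 5. It was higher in all 5 pairs, and the difference was 1.15 ± 0.38 on the log2 scale (SE, adjusted p = 0.358 by limma, and 0.0137 with the block). Its neighbor miR-214-3p had a log2 fold change of 0.99, just under the size required. The other arm, miR-199a-3p, had a log2 fold change of -0.01 (95% interval -0.78 to 0.76). It was higher on the liver surface in 4 of 5 pairs and low on liver surface sheet 3, and without pair 3 it stood at 0.40. Over all sheets, the level of the 5p arm over that of the 3p arm was 0.199 to 0.578 on the liver surface and 0.0883 to 0.255 on the pelvic peritoneum. miR-199b-3p had the same level as miR-199a-3p to within 0.996 to 1.01 on every sheet, so reads of the 2 cannot be told apart. Of the 6 mesenchymal miRNAs 3 lay above 0 and 3 below, and 6 above without pair 3.

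miR-93-5p, which with miR-106b and miR-25 is transcribed from within Mcm7, a replication gene, had 650, 2117, 2292, 1907 and 934 RPM on liver surface sheets 1 to 5 and 399, 686, 1222, 901 and 420 RPM on pelvic sheets 1 to 5. Again each liver surface sheet was above its partner, while the groups overlapped, and the difference was 1.08 ± 0.43 on the log2 scale (SE, adjusted p = 0.366 by limma, and 0.021 with the block). The 5 Mcm7 miRNAs tested had a median of 0.83, with miR-106b-5p at 0.84 and miR-25-3p at 0.62. All 5 tested miRNAs with the seed AAAGUGC were above 0, where 139 of all 385 were, and their log2 fold changes ran from 0.14 for miR-20b-5p to 1.08 for miR-93-5p, with miR-17-5p at 0.66 and miR-20a-5p at 0.59. These 5 are not independent evidence of each other, since miR-93 and miR-106b lie together, as do miR-17 and miR-20a. Up to 2 mismatches were allowed, and whether such similar miRNAs shared reads was not tested. miR-31-5p, from chr4:88910614-88910635 (minus strand), had 12.3, 74.2, 261, 75.5 and 18.8 RPM on liver surface sheets 1 to 5, against 4.52, 17.6, 26.6, 16.3 and 4.16 RPM on pelvic sheets 1 to 5. It was higher in 5 of 5 pairs, and the difference was 1.57 ± 0.6 on the log2 scale (SE, adjusted p = 0.366 by limma, and 0.0261 with the block, or 0.0516 with the block and median-of-ratios scaling).

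Of the 10 miRNAs with the highest mean over the sheets, miR-122-5p (7.92) and miR-451a (2.77) had a log2 fold change over 1 in size, and the other 8 lay between -0.77 and 0.22. miR-21a-5p, induced in many tumors and in fibrosis, averaged 90605 ± 25852 RPM on liver surface sheets and 109479 ± 17886 RPM on pelvic sheets (± SD, n = 5 sheets each), with a 95% interval of the log2 fold change from -0.85 to 0.21. The corresponding intervals were -0.72 to 0.16 for miR-26a-5p, -0.58 to 0.23 for let-7f-5p, -0.34 to 0.34 for let-7g-5p, -0.18 to 0.46 for let-7i-5p and -0.64 to 1.07 for miR-148a-3p. miR-26b-5p averaged 15928 ± 3287 RPM on liver surface sheets and 16479 ± 2264 RPM on pelvic sheets, with an interval of -0.51 to 0.38. The let-7 family, whose members restrain Lin28 and Ras genes, took 13.98% to 20.25% of the reads of the liver surface sheets and 16.76% to 21.26% of those of the pelvic sheets, with 3 of 9 members above 0. For 52.7% of the 385 miRNAs the 95% interval lay within a 2-fold change either way, and 22 had a log2 fold change over 1 in size. Lowest of those 8 was miR-99a-5p, which averaged 50963 ± 19318 RPM on liver surface sheets and 80890 ± 13193 RPM on pelvic sheets and was lower in 5 of 5 pairs. Its log2 fold change was -0.77 (95% interval -1.45 to -0.09, limma adjusted p = 0.368). miR-100-5p (-0.6) and miR-99b-5p (-0.66), which share its seed ACCCGUA, also lay below 0, and none was called.

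5 further miRNAs were lower on every liver surface sheet than on any pelvic sheet, yet were not called: miR-501-3p (log2 fold change -0.63), miR-221-5p (-0.61), miR-423-3p (-0.51), miR-191-3p (-0.48) and let-7d-3p (-0.42). All were under the size required. For miR-501-3p, miR-423-3p and let-7d-3p the limma adjusted p was 0.412 each, and 0.177, 0.185 and 0.165 with the block. In the other direction miR-101b-3p had 441, 465, 717, 430 and 469 RPM on liver surface sheets 1 to 5 and 344, 336, 417, 390 and 408 RPM on pelvic sheets 1 to 5. Those groups did not overlap, at a log2 fold change of 0.38.

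The Dlk1-Dio3 cluster is an imprinted region whose miRNAs are expressed from the maternal chromosome. All 41 tested miRNAs of the list used for it, which holds 49, had a log2 fold change below 0, from -0.82 to -0.13, with a median of -0.40 beside -0.15 over all tested, and 40 were below 0 after rescaling. None was called in either fit. The median of the list was 0.03, -0.6, -0.94, -0.5 and -0.13 in pairs 1 to 5. In all 5 pairs 9 of the 41 were lower, where 61 of all 385 were (15.8%). The 41 come from the same region and the same sheets, so they are not independent evidence of each other. Grouped by position, the region held groups of 13 and 33 tested miRNAs, of which 1 lay above 0, at 0.15. Without pair 3 the median of the list was -0.30 with 37 below 0. The miRNAs of the AGCAGCA seed (the miR-15 and miR-16 family) had 6 of 6 above 0 with a median of 0.40, and the 7 of the miR-17-92 list had 7 of 7 above 0 with a median of 0.27. Members of such a family or cluster are likewise not independent of each other. The leukocyte list had 1 of 10 above 0 with a median of -0.5, which was -0.07 without pair 3. The study's own miRNA lists for the 2 sites were picked on these libraries, so their direction is not independent evidence. Of its 11 liver surface miRNAs tested 1 was called by limma, 7 with the block and 9 by DESeq2, the tool the study used (median 1.15). The 1 limma call was miR-802-5p, which passed the filter on the liver surface sheets alone and so had to differ. In the main fit miR-26b-5p, also on that list, lay below 0 (-0.07), and DESeq2 did not call it. Of its 5 pelvic miRNAs 3 were called by limma, 5 with the block and 5 by DESeq2 (median -1.75). Medians near 0 were found for the epithelial list (-0.02), the miR-30 family (0.03) and the let-7 family (-0.05).

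**Figure D4:**
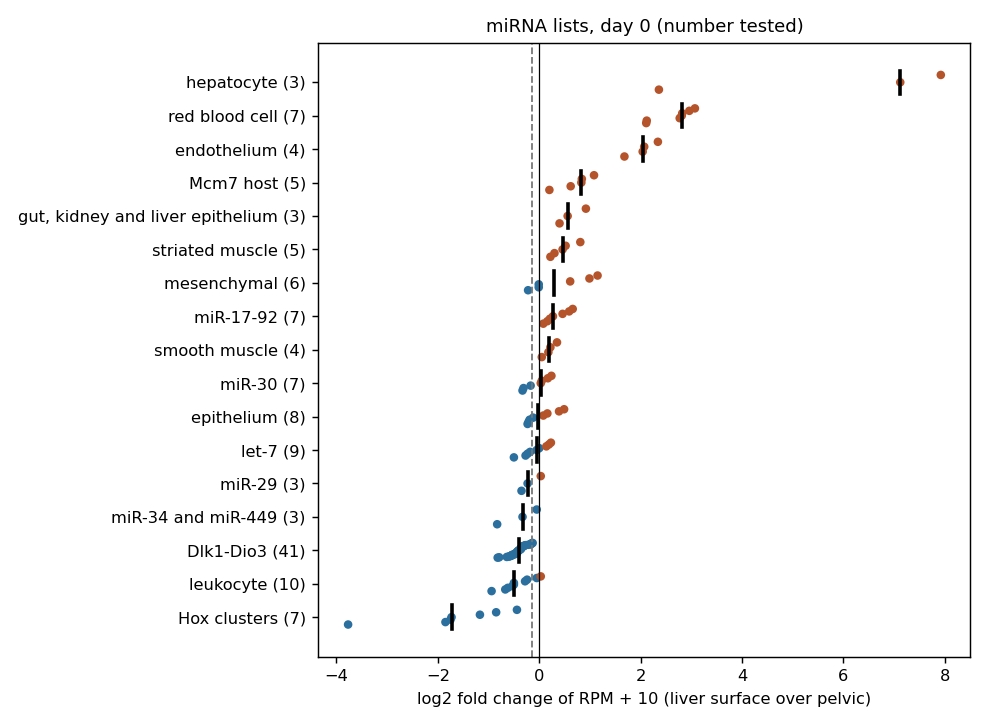
Log2 fold change (liver surface over pelvic peritoneum, x axis) of each tested miRNA by list, orange above 0 and blue below, with a bar at the median of each list and a dashed line at the median of all 385 miRNAs (-0.15). The Hox cluster miRNAs lie wholly below 0 (median -1.73), and the hepatocyte, red blood cell and endothelial miRNAs wholly above it (medians 7.12, 2.81 and 2.05). Also wholly above 0, with smaller medians, are the Mcm7 (0.83), gut, kidney and liver epithelium (0.56), striated muscle (0.46), miR-17-92 (0.27) and smooth muscle (0.2) lists. The Dlk1-Dio3 (-0.4) and miR-34 and miR-449 (-0.33) lists lie wholly below 0, and the remaining lists lie on both sides of it.

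The labelled sites were set against miRNAs of other cell types. The 11 striated muscle miRNAs summed to 23968, 4606, 1647, 6121 and 5260 RPM on liver surface sheets 1 to 5 and to 4816, 4603, 3443, 2449 and 10436 RPM on pelvic sheets 1 to 5. These sums overlapped between sites, while the hepatocyte list was higher on each sheet labelled diaphragm than on any pelvic sheet. Of the striated muscle list 5 were tested, and all 5 had a log2 fold change above 0, from 0.22 to 0.81. Their median was 0.46, or 0.81 without pair 3. By limma 0 were called in either fit, and 1 was called by DESeq2. Liver surface sheet 1 was also the one with pancreatic miRNAs, at 277 RPM in sum against 1.97 to 10.3 RPM on the other liver surface sheets and 0.682 to 5.94 RPM on the pelvic sheets. Smooth muscle miRNAs were highest on the sheets numbered 2 of both sites, with 29317 RPM on the liver surface (3285 to 7814 RPM on the others) and 45803 RPM on the pelvic peritoneum (3044 to 14708 RPM on the others). Liver surface sheet 3 combined the highest hepatocyte sum with the highest red blood cell sum, 14.03% of its reads, and with the lowest leukocyte sum, 0.9% against 2.83% to 4.84% on the other liver surface sheets and 2.96% to 4.68% on the pelvic sheets. The part of these cell types in the differences of the other miRNAs was not tested.

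**Figure D5:**
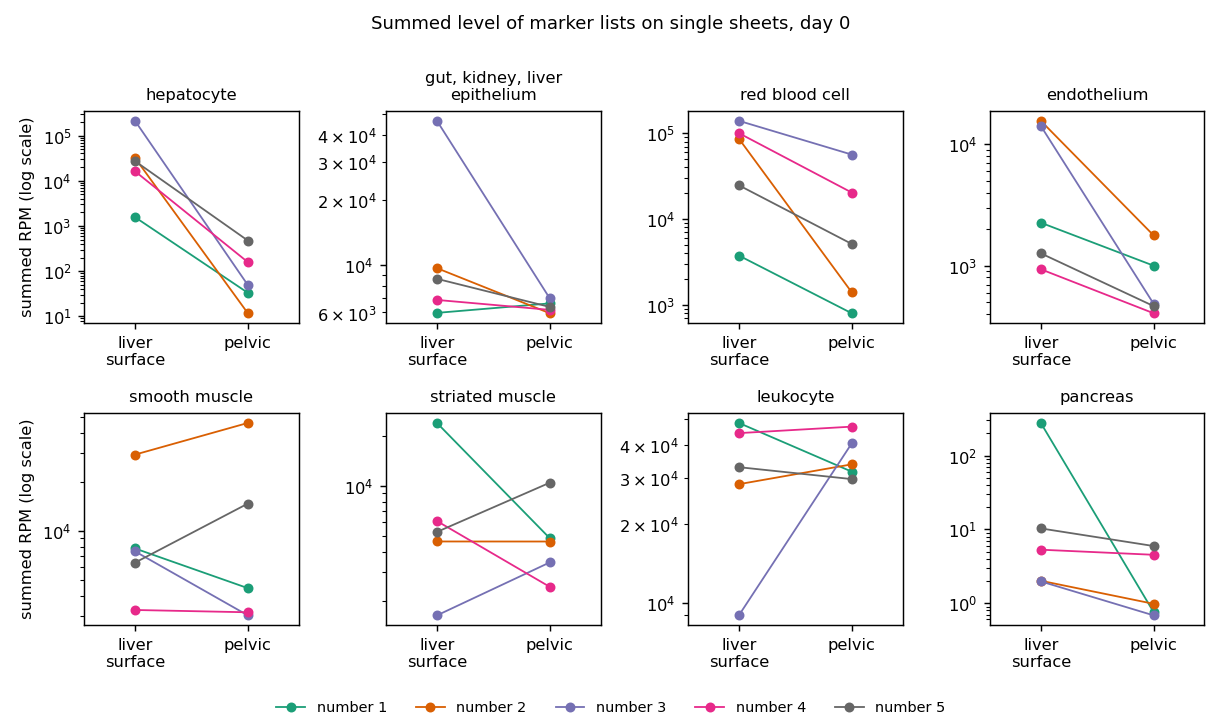
Summed level of 8 marker lists on each sheet (RPM, log axis), liver surface left and pelvic peritoneum right in each panel, with a colored line joining the sheets of each number. Hepatocyte miRNAs separate the sites (1562 RPM or more on the liver surface and 474 RPM or less on the pelvic peritoneum), striated and smooth muscle miRNAs overlap, and pancreatic miRNAs stand out on liver surface sheet 1 (277 RPM).

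The same sites were sampled again at day 4, on 10 further sheets with 132483 to 661582 reads, and the difference between sites was compared between days in one limma fit. It differed for 2 of 446 miRNAs tested (0.448%), those with 10 RPM on at least 5 sheets over both days. One of them, miR-6239, passed that filter only through the pelvic sheets of day 4, where it was high. miR-196a-5p was the other, with an interaction of -3.5 on the log2 scale (SE 0.65, limma adjusted p = 0.0103). At day 4 miR-196a-5p had 109.7, 247.9, 420.2, 171.0 and 342.2 RPM on liver surface sheets 1 to 5 and 147.5, 645.5, 309.5, 283.1 and 213.1 RPM on pelvic sheets 1 to 5, so the groups overlapped and the log2 fold change was -0.27. When a number was left out at both sites and days, no interaction was called without number 3, 4 or 5. The interaction of miR-196b-5p was -1.74 (limma adjusted p = 0.349) and that of miR-615-3p -1.34 (0.659). For miR-10b-5p the day 4 means were 5242 RPM on liver surface sheets and 14742 RPM on pelvic sheets, with a log2 fold change of -1.68 beside -1.73 at day 0. Liver surface sheet 3 (11452 RPM) was above pelvic sheets 2 (11141 RPM) and 4 (8836 RPM). miR-122-5p averaged 6751 RPM on liver surface sheets and 266 RPM on pelvic sheets at day 4, with a log2 fold change of 5.02 and an interaction of 2.91 (limma adjusted p = 0.89). Its day 4 levels were 8711, 2400, 307, 94.1 and 22240 RPM on liver surface sheets 1 to 5. Pelvic sheets 1 to 5 had 5.57, 17.1, 0, 72.4 and 1237 RPM, so the groups overlapped, unlike at day 0. miR-802-5p at day 4 had 7.7, 3.02, 0, 0 and 1.85 RPM on liver surface sheets 1 to 5 and 0 on all pelvic sheets. For miR-451a the day 4 means were 42841 RPM on liver surface sheets and 52660 RPM on pelvic sheets, a log2 fold change of -0.23, and the interaction of 3.0 had a limma adjusted p of 0.706.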

How the data were processed

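EVs were captured on cellulose nanofiber sheets and sequenced as small RNA. The authors trimmed adapters and mapped reads to miRBase 22 with CLC Genomics Workbench 9.5.3, allowing up to 2 mismatches, and deposited RPM values. The treatment of reads with several matches was not given in the sources used here. The RPM steps gave whole reads for 100% of values (tolerance 0.001), which served the count tests. miRNAs with 10 RPM on at least 5 of the 10 libraries were tested with limma (3.58.1, R 4.3.3) on log2(RPM + 10) with a mean trend, 5 liver surface against 5 pelvic sheets. The fold changes understate those of low miRNAs. Alternatives were edgeR (4.0.16) and DESeq2 (1.42.0) on the recovered reads, other pseudocounts, filters and scalings, the replicate block and leaving out sheets. None of 20 within-site pairs of libraries was identical.

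Same-numbered sheets deviated together (correlation of deviations from the site means 0.397 to 0.704 over the 5 numbers, and the own number was the closest for 4 of 5), so the block was printed where it changed a call. The labels do not say whether a number marks 1 animal. The study states 3 repeats from the same spot, without saying how that applies to these sheets.

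The miRNAs named were those called in either fit at 100 RPM or more in the higher group, those the study names for this comparison, up to 4 per list, the largest differences without overlap, the 10 most abundant, and other arms and same-seed miRNAs of those called. Clusters, leave-outs of sheet 3 and level ratios were chosen after seeing values. Members and lists were chosen with earlier results of these data known. The study's own miRNA lists for the 2 sites were picked on these libraries. Gene positions are from RefSeq and GENCODE on GRCm38.p6. Limits for a count of 0 cover counting error only, since PCR reads are not independent molecules.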

Additional observations from a re-analysis of the deposited data

Results flagged for a closer look

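Among 50 miRNAs checked at both sites, 22 of 100 groups of 5 sheets held a sheet far from the other 4 by Dixon's criterion. The rate of about 1 in 20 for that criterion holds for normal and independent values. Here untransformed RPM of partly linked miRNAs on the same sheets were checked, so the 22 cannot be compared with that rate. Liver surface sheet 3 accounted for 11 of them. It was highest for miR-122-5p (174591 RPM), miR-122b-3p (35874 RPM), miR-122-3p (551 RPM), miR-802-5p (174 RPM), miR-192-5p (35069 RPM), miR-194-5p (11317 RPM), miR-31-5p (261 RPM) and miR-101b-3p (717 RPM), and lowest for miR-199a-3p (967 RPM), miR-27a-3p (6288 RPM) and miR-501-3p (95.3 RPM). Liver surface sheet 1 was the highest of its site for miR-196a-5p (113 RPM), for miR-1a-3p of striated muscle (20328 RPM) and for miR-217-5p of pancreas (195 RPM).

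The sheets numbered 2 were set apart by smooth muscle miRNAs at both sites: miR-143-3p had 27784 RPM on the liver surface sheet and 43461 RPM on the pelvic sheet, and miR-145a-5p had 1094 RPM on the liver surface sheet and 1739 RPM on the pelvic sheet. Pelvic sheet 2 was also highest for miR-126a-5p (48.9 RPM) and miR-126b-3p (51.8 RPM). Pelvic sheet 3 was lowest for miR-196b-5p (339 RPM), and pelvic sheet 5 was highest for let-7i-5p (44459 RPM).

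The difference between sites itself differed between day 0 and day 4 for 2 miRNAs. The interaction was -3.5 on the log2 scale for miR-196a-5p and 2.44 for miR-6239 (SE 0.52, limma adjusted p = 0.0233). miR-6239 fell short of the day 0 filter, with at most 3.8 RPM on the liver surface sheets and 2.93 RPM on the pelvic sheets. At day 4 it had 0, 1.51, 5.68, 11 and 1.85 RPM on liver surface sheets 1 to 5 and 25, 14.6, 113, 95.5 and 124 RPM on pelvic sheets 1 to 5. These were 10 reads in sum on the liver surface and 77 on the pelvic peritoneum. miR-6239 passed the filter of the interaction fit only through the pelvic sheets of day 4, where it was high. Its adjusted p is therefore not independent evidence of a difference.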

How the results depend on the processing

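Across 84 single miRNA results and 2651 alternatives, 2562 kept their side of the threshold, 7 lost a call, 82 gained one and 0 reversed. Among the 2562 were 154 uncalled values, of miRNAs with an interval that held 0, whose sign changed. The 3 miRNAs called higher on the liver surface became 11 by DESeq2, 16 with the replicate block and 15 with the block and rescaling, and 2 to 17 when a pair was left out of the fit with the block. The 3 called lower became 5 by DESeq2, 5 with the block and 5 with the block and rescaling, 1 to 4 when a pair was left out, and 4 to 5 when a pair was left out with the block. The 2 interactions became 1 with a pseudocount of 50 RPM, 1 without a filter, 1 with a filter at 100 RPM, 1 after rescaling and 1 by edgeR, 3 with a pseudocount of 1 RPM and 3 by DESeq2, and 0 to 2 when a number was left out (28 had an unadjusted p under 0.05 with all sheets, and 29, 16 and 19 without number 3, 4 or 5). The cause was not tested. miR-802-5p lost its call with the pseudocount of 50 RPM, after rescaling (limma adjusted p = 0.0724) and by edgeR (0.0599), and dropped out of the test when any liver surface sheet was left out. The adjusted p of miR-10b-5p ranged from 0.000104 (DESeq2) to 0.495. DESeq2 gave no adjusted p for miR-122-5p, miR-122b-3p, miR-192-5p and miR-194-5p. The depth of 1022869 reads or more per sheet limits miRNAs listed at 0 to 3 reads over a group, or 0.339 RPM over the liver surface sheets and 0.454 RPM over the pelvic sheets.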

Other observations

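Neighboring miRNA genes were grouped after the values had been seen, taking those within 10 kb of each other with at least 4 tested members, which gave 19 groups described here with no test. The groups highest on the liver surface were miR-15b with miR-16-2 on chromosome 3 (4 of 4 above 0, median log2 fold change 0.86), the Mcm7 group on chromosome 5 (5 of 5 above 0, median 0.83), miR-199a with miR-214 on chromosome 1 (3 of 4 above 0, median 0.80) and the group of miR-450a, miR-542, miR-351, miR-503 and miR-322 on the X chromosome (7 of 7 above 0, median 0.55). The lowest were miR-99b, let-7e and miR-125a on chromosome 17 (6 of 6 below 0, median -0.55) and miR-23a, miR-27a and miR-24-2 on chromosome 8 (7 of 7 below 0, median -0.50). Without pair 3 the chromosome 17 group had a median of -0.42 and the chromosome 8 group -0.18.

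Spread between sheets was greater on the liver surface, with a median SD of 0.53 log2 units against 0.39 on the pelvic peritoneum, and 289 of 385 miRNAs had the larger SD on the liver surface. Without sheet 3 of each site the medians were 0.34 on the liver surface and 0.36 on the pelvic peritoneum.

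Of the 831 miRNAs detected short of the filter, 175 had reads on liver surface sheets alone and 112 on pelvic sheets alone, where the liver surface libraries held 8838201 reads in sum and the pelvic libraries 6604692.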
